A study of Triticum aestivum with 2 samples.

Results

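Of the 61115 wheat probe sets on the Affymetrix Wheat Genome Array, the study listed 7 under names of NAD(P)H and NADH oxidoreductase chains. They are the probe sets whose putative function, in the study's lists of 110 candidate sense-antisense transcript pairs and 80 potential antisense-specific transcripts, names an NAD(P)H or NADH oxidoreductase or dehydrogenase. Of the 7, 5 stand in the list of pairs and 2 in the antisense-specific list. Probe sets for such chains outside the lists could not be counted, as 60017 of the 61290 deposited probe sets have no gene symbol. Both lists were chosen by the signals and detection calls of the same 2 arrays, and the signals below describe the members, with no test made on them. All 7 were above the detection threshold in the WT assay, by a median of 3.07 log2 units, and 5 of 7 in the 3'IVT assay, where the median of the 7 was 0.57 log2 units over the threshold. The highest WT signal of any wheat probe set on the array belonged to NADH ubiquinone oxidoreductase. Its lead over the probe set at rank 8 was within the spread of control probe sets. Its design sequence is marked as antisense, so this signal may come from sense transcripts.

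RNA was pooled in equal parts from 5 tissues of untreated 'Chinese Spring' wheat, namely germinated seed kept in the dark for 2 days, shoot, flag leaf, and spike before and after anthesis. The same pool was hybridized to 1 array by the Whole Transcript (WT) assay and to 1 array by the 3' in vitro transcription (3'IVT) assay. The WT assay began with random primers and labeled the sense-oriented strand, so that the array's probes read antisense transcripts. The 3'IVT assay began with a T7-oligo(dT) primer, and the array read sense transcripts. Neither array was replicated, so the error between hybridizations is unknown, and since the 5 tissues were mixed, no signal can be assigned to one of them. In pooled RNA, fewer cells that hold a transcript and less of it in each cell cannot be told apart.

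The plastid NAD(P)H dehydrogenase complex sits in the thylakoid membrane, takes electrons from ferredoxin and passes them to plastoquinone, and so takes part in cyclic electron flow around photosystem I. Some of its chains are encoded in the plastid genome, among them chain 5 (NdhF), an antiporter-like protein of the membrane arm, and chains H (NdhH) and K (NdhK), which belong to the arm that faces the stroma. Chain K carries an iron-sulfur cluster near the quinone site. The related NADH ubiquinone oxidoreductase, or complex I, starts the respiratory chain in mitochondria. The remaining annotations do not name a compartment, namely NADH dehydrogenase, NADH ubiquinone oxidoreductase and NAD(P)H-dependent oxidoreductase, and they are called the other forms.

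As threshold, the lowest of the 9 probe sets for bioB was taken on each array. bioB is a bacterial control RNA added at the limit of detection. The threshold was a log2 signal of 15.19 in the WT assay (AFFX-BioB-5_at) and 9.69 in the 3'IVT assay (AFFX-Tae-r2-Ec-bioB-5_at). The excess of a probe set is its log2 signal minus this threshold on the same array. Signals were not compared between the arrays as levels, because the assays label and amplify RNA differently and each array was scaled on its own. Excesses are on unlike scales too. The threshold lay 7.18 log2 units above the median wheat probe set in the WT assay and 3.07 in the 3'IVT assay. Where the 2 excesses of a probe set are set side by side, their order describes signals and not amounts of the 2 strands. Over the whole array 0.367% of wheat probe sets were above the WT threshold, 17.3% above the 3'IVT threshold, 0.208% above both and 0.159% above the WT threshold alone. Spread within an array was taken from probe sets for the same region of a control, whose SD was 0.26 log2 units in the WT assay and 0.32 in the 3'IVT assay (27 probe sets of 9 regions). Because probe sequences differ between probe sets, signals of different probe sets do not rank their transcripts by abundance. The green tissues of the pool were checked on RUBISCO activase, which keeps the carbon-fixing enzyme active. Its listed pair probe set had log2 signals of 15.71 in the WT assay and 15.37 in the 3'IVT assay, at ranks 176 and 12 of the wheat probe sets. For RUBISCO activase the study's strand-specific RT-PCR detected no antisense strand in any tissue, unlike its WT signal. It was the only target tested with that outcome, and the study names primer position as a possible reason. The other targets, among them the RUBISCO small subunit, showed the antisense strand in several tissues. No oxidoreductase member was among the targets.

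Chain 5, read by TaAffx.128617.1.S1_x_at, had a log2 signal of 17.52 in the WT assay and 12.78 in the 3'IVT assay. These were linear signals of 188130 and 7011 in the same order, and lay 2.33 and 3.08 log2 units over the thresholds. It was the only member whose excess was larger in the 3'IVT than in the WT assay, and it had the highest 3'IVT signal of the 7. Among all wheat probe sets it ranked 81 in the WT assay and 1400 in the 3'IVT assay. On both arrays it was brighter than the median of bioC, the control added at the next higher concentration. The suffix _x placed TaAffx.128617.1.S1_x_at among the probe sets treated here as shared with other sequences. Its signals may therefore not come from chain 5 alone.

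Chain H (TaAffx.107764.1.S1_at) had log2 signals of 18.25 in the WT assay and 10.35 in the 3'IVT assay. Its excess was 3.07 in the WT assay and 0.66 in the 3'IVT assay, so that it was far over one threshold and near the other. It ranked 61 in the WT assay and 7440 in the 3'IVT assay among the wheat probe sets, and it is the only probe set of its design cluster. A design cluster is the group of related sequences that share a cluster number in the probe set name.

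Chain K (TaAffx.80571.1.S1_s_at) had log2 signals of 17.08 in the WT assay and 11.04 in the 3'IVT assay, with an excess of 1.89 and 1.34. Its signals lay between the medians of bioB and bioC on both arrays. The difference between its 2 excesses, 0.55 log2 units, was the smallest of the 7 in size, and it turned to -0.02 when the highest bioB probe set was taken as the threshold.

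The sequence that chain K was designed from, TaAffx.80571.1.S1, carries a second member. TaAffx.80571.1.S1_at is named NAD(P)H-dependent oxidoreductase in the antisense-specific list, and had log2 signals of 16.04 in the WT assay and 8.93 in the 3'IVT assay. The suffix _s marks probes that match several transcripts of the array's design, and the probe set without it reads 1 transcript. The shared probe set was brighter by 1.04 log2 units in the WT assay and by 2.10 in the 3'IVT assay. These are 2.84 and 4.60 times the SD that the controls give for the difference of 2 probe sets of the same region. The multiples are no test, because that SD is of control RNA and the signal of 8.93 lies below every control of the 3'IVT assay. The pair thus crossed the 3'IVT threshold, with an excess of 1.34 for the shared probe set and -0.76 for the other, while both were above the WT threshold, with 1.89 and 0.85. The sequence stands in both lists, under 2 names. The 7 members come from 6 design sequences.

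NADH dehydrogenase (TaAffx.124056.1.S1_at) had log2 signals of 18.95 in the WT assay and 10.06 in the 3'IVT assay. Its excess was 3.77 in the WT assay and 0.37 in the 3'IVT assay. The WT signal was above the median of bioD and the 3'IVT signal was below the median of bioB, and of the members above both thresholds it was the closest to the 3'IVT threshold. Its design cluster holds 1 more probe set, TaAffx.124056.2.A1_at, whose design sequence is in the antisense orientation and which is in neither list. That probe set had 14.22 in the WT assay and 8.14 in the 3'IVT assay, and its excess was -0.96 and -1.56.

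NADH ubiquinone oxidoreductase (TaAffx.21659.1.A1_at) had log2 signals of 19.74 in the WT assay and 10.27 in the 3'IVT assay. Its WT signal of 873770 ranked 1 among the 61115 wheat probe sets and was 23.4 times the threshold signal. The WT log2 signal at rank 8 was 19.56 (TaAffx.128617.18.S1_x_at), closer than the SD of 0.26 between probe sets of one control region. Rank 1 was thus not separated from rank 8 beyond that spread. In the 3'IVT assay the signal of NADH ubiquinone oxidoreductase, 1233, was 1.49 times the threshold signal, at rank 7827. The WT signal lay within the range of the 6 probe sets for creX, the brightest control, at 19.52 to 19.84. In the WT assay the medians of bioB, bioC, bioD and creX were 16.14, 17.29, 18.49 and 19.61. In the 3'IVT assay they were 10.13, 11.60, 13.50 and 15.10, so that controls stood closer together in the WT assay at every step. This is the only member with the letter A in its name, by which Affymetrix marks a design sequence in the antisense orientation. If that orientation is right, the WT signal of this probe set comes from sense transcripts. The array has no other probe set of this cluster, so the orientation was not tested.

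The other NAD(P)H-dependent oxidoreductase (TaAffx.112816.1.S1_at) had a log2 signal of 18.98 in the WT assay and 7.01 in the 3'IVT assay, with an excess of 3.79 and -2.69. Its WT signal ranked 35 of all wheat probe sets. Reporter genes of other organisms, which are absent from wheat, show the background of each array, and the highest of 63 such probe sets had 11.76 in the WT assay and 7.02 in the 3'IVT assay. TaAffx.112816.1.S1_at was the only member not above that level in the 3'IVT assay, so the size of the gap between its 2 excesses is not a measured difference, and all 7 were above it in the WT assay. These 63 leave out 1 reporter probe set, RPTR-Ta-X03453-2_s_at, after its values were seen. It lay within the range of creX on both arrays, with 19.58 in the WT assay and 15.33 in the 3'IVT assay. With it kept, this 1 probe set was the highest reporter on both arrays. Above it were 1 of 7 members in the WT assay and 0 of 7 in the 3'IVT assay. The name carries the letter S, so the design sequence is in the sense orientation, and the array has no other probe set of its cluster.

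**Figure D1:**
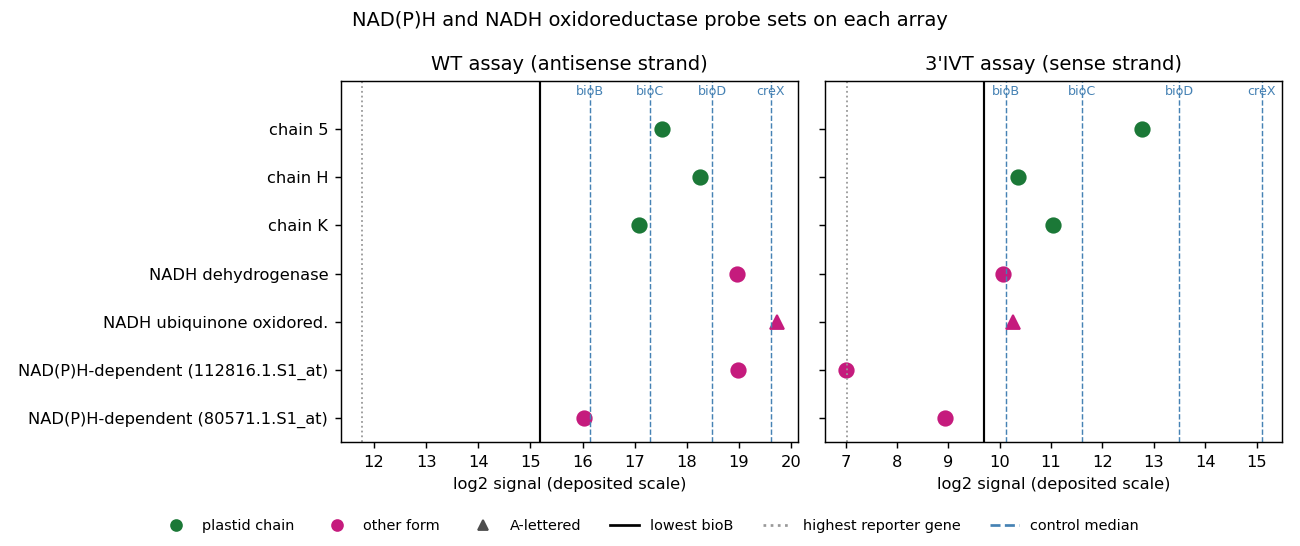
Log2 signal (x axis, deposited scale) of the 7 oxidoreductase probe sets (rows) in the WT assay (left) and the 3'IVT assay (right), 1 point for 1 array. The solid line is the lowest bioB probe set, dashed lines are medians of the 4 controls and the dotted line is the highest of 63 reporter probe sets. All 7 points lie right of the solid line in the WT assay and 5 in the 3'IVT assay.

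In the WT assay the excess of the 3 plastid chains was 1.89 to 3.07, with a median of 2.33, and that of the 4 other forms 0.85 to 4.55, with a median of 3.78. The groups overlapped there through TaAffx.80571.1.S1_at, and the remaining 3 other forms were each above every plastid chain. In the 3'IVT assay the excess of the plastid chains was 0.66 to 3.08, and that of the other forms -2.69 to 0.57. The lowest plastid chain, chain H at 0.66, and the highest other form, NADH ubiquinone oxidoreductase at 0.57, were closer than the SD of 0.32 between probe sets of one control region, so these groups were not separated beyond that spread. Of the 4 other forms, 2 are from the antisense-specific list, which the study chose for lacking a sense signal. TaAffx.80571.1.S1_at, counted as an other form by its name, shares its design sequence with plastid chain K. The WT excess was larger than the 3'IVT excess for 2 of the 3 plastid chains and for all 4 other forms.

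**Figure D2:**
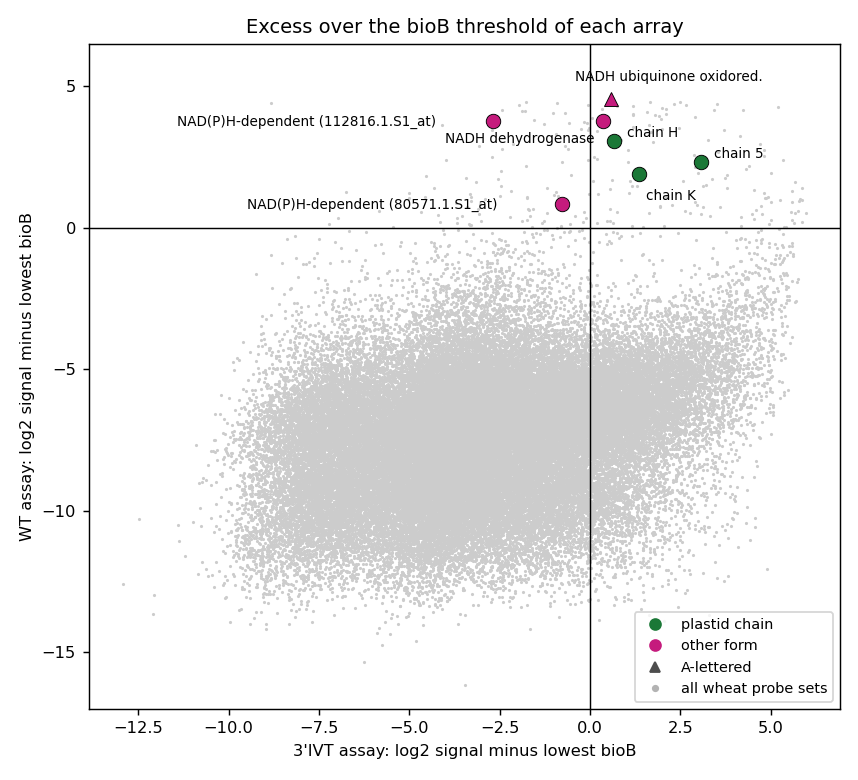
Excess over the lowest bioB probe set in the 3'IVT assay (x axis, log2 units) and in the WT assay (y axis, log2 units) for the 7 members, in colour, and 61115 wheat probe sets, in grey. The members lie above the horizontal line, which 0.367% of the wheat probe sets exceed, and all but chain 5 have a 3'IVT excess under 1.5.

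The members' places within the study's lists differed. Of the 110 listed pairs, NADH ubiquinone oxidoreductase ranked 1 in the WT assay and 102 in the 3'IVT assay. NADH dehydrogenase ranked 23 and 104 among them in the same order of assays, and chain H ranked 37 and 100. Chain 5 ranked 47 in the WT assay and 54 in the 3'IVT assay, and chain K 53 and 86. Of the 80 antisense-specific probe sets, TaAffx.112816.1.S1_at ranked 13 in the WT assay and 52 in the 3'IVT assay, and TaAffx.80571.1.S1_at ranked 60 and 21. Set beside the 224 probe sets above the WT threshold, whose median excess was 1.40 in the WT assay and 0.57 in the 3'IVT assay, the members had 3.07 and 0.57. For the 127 probe sets above both thresholds the medians were 1.64 in the WT assay and 2.87 in the 3'IVT assay.

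Other chains of photosynthetic electron transport and the plastid's protein-making machinery on the lists gave the setting, with no test between groups that were all chosen by signal. The excess of the 7 probe sets for photosystem II and Q(B), where water is split, had medians of 1.95 in the WT assay and 4.54 in the 3'IVT assay. Photosystem I (9 probe sets), which reduces ferredoxin, had 0.91 and 3.11, and the cytochromes with their assembly protein ccsA (5) had 1.48 and 3.20. ATP synthase (10), which uses the proton gradient, had 0.75 in the WT assay and 1.94 in the 3'IVT assay, and 8 of its probe sets were above both thresholds. The RUBISCO large subunit (7), which fixes carbon, had 1.42 and 5.25. The chloroplast ribosomal proteins (22) had 3.10 in the WT assay and 1.77 in the 3'IVT assay. The ribosomal proteins and the oxidoreductases were the groups in which the WT median was the larger of the 2. The WT excess was larger than the 3'IVT excess in 6 of 7 oxidoreductases and 13 of 22 ribosomal proteins, and in 4 of 10 ATP synthase, 3 of 9 photosystem I, 2 of 7 photosystem II, 2 of 5 cytochrome and 3 of 7 RUBISCO large subunit probe sets. A larger WT excess was also found in 146 of the 224 wheat probe sets above the WT threshold. It was found in 49 of the 127 above both thresholds and in 5434 of all 61115. The 2 oxidoreductases of the antisense-specific list are among the 6, and that list was chosen for lacking a sense signal. Every group overlapped the oxidoreductases in both assays. Because the excesses of the 2 arrays are on unlike scales, a larger WT excess does not mean more antisense than sense transcript.

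**Figure D3:**
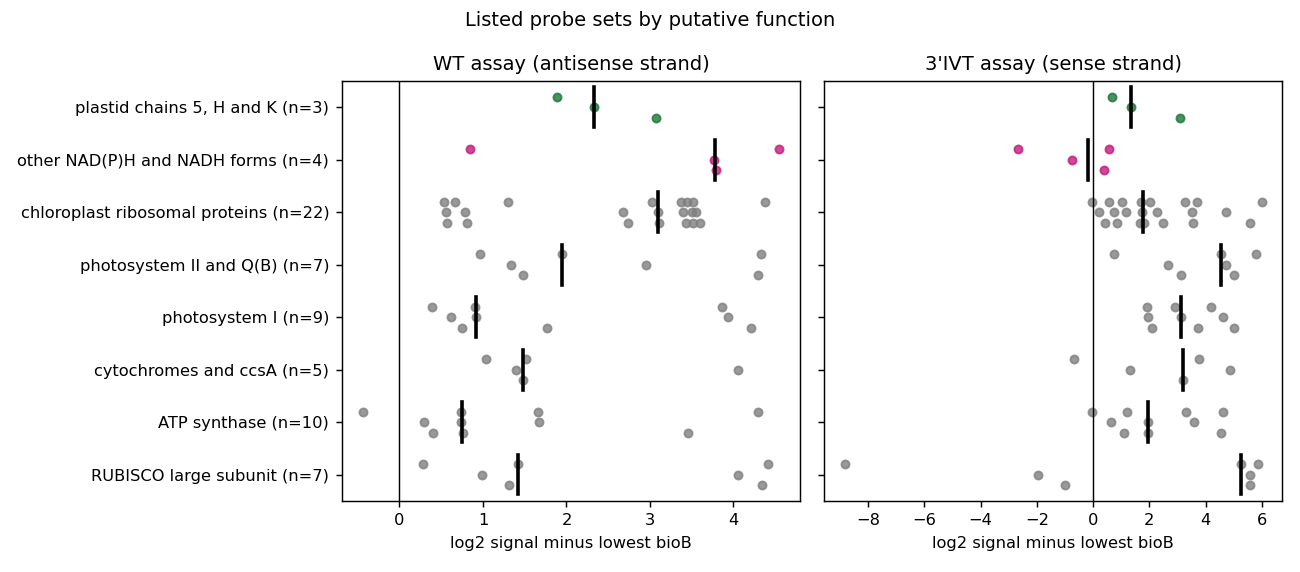
Excess over the lowest bioB probe set (x axis, log2 units) of listed probe sets by putative function (rows) in the WT assay (left) and the 3'IVT assay (right). Each point is 1 probe set and the bar is the median of its group, at 2.33 and 3.78 for the plastid chains and the other forms in the WT assay and at 1.34 and -0.19 in the 3'IVT assay.

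The design clusters of the members hold 13 further probe sets, 12 of them beside chain 5 in TaAffx.128617. Of the 13, 5 were above the WT threshold and 6 above the 3'IVT threshold, 4 of them above both. Over all wheat probe sets these shares were 0.367%, 17.3% and 0.208%. The 5 above the WT threshold are themselves in the study's lists, which were chosen by signal. The 4 probe sets for ribosomal protein S15 of the small chloroplast subunit, in this same cluster, had WT log2 signals of 17.93 (TaAffx.128617.3.S1_x_at), 18.58 (TaAffx.128617.5.S1_at), 18.29 (TaAffx.128617.17.S1_s_at) and 19.56 (TaAffx.128617.18.S1_x_at). Their 3'IVT signals were, in that order, 10.74, 11.37, 12.96 and 13.20, so that all 4 were brighter than chain 5 in the WT assay and 2 of them in the 3'IVT assay. TaAffx.128617.14.S1_x_at, of unknown function and in the antisense-specific list, had 18.14 in the WT assay and 7.55 in the 3'IVT assay.

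The remaining 7 probe sets of this cluster are in neither list, and none was above the WT threshold. Their signals were 7.08 to 14.76 in the WT assay and 4.43 to 12.63 in the 3'IVT assay. The nearest to the WT threshold was TaAffx.128617.16.S1_at, with 14.76 in the WT assay and 12.63 in the 3'IVT assay, an excess of -0.43 and 2.94. TaAffx.128617.4.S1_at was alike, with 14.05 and 11.33. The 3 probe sets of the cluster with the letter A had 10.48 to 14.53 in the WT assay and 5.75 to 8.62 in the 3'IVT assay, below both thresholds. The 10 with the letter S had a median of 17.73 in the WT assay and 11.35 in the 3'IVT assay, with 6 and 7 above the thresholds. Among 13 probe sets of one cluster the WT signals thus differed by 12.5 log2 units and the 3'IVT signals by 8.77.

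**Figure D4:**
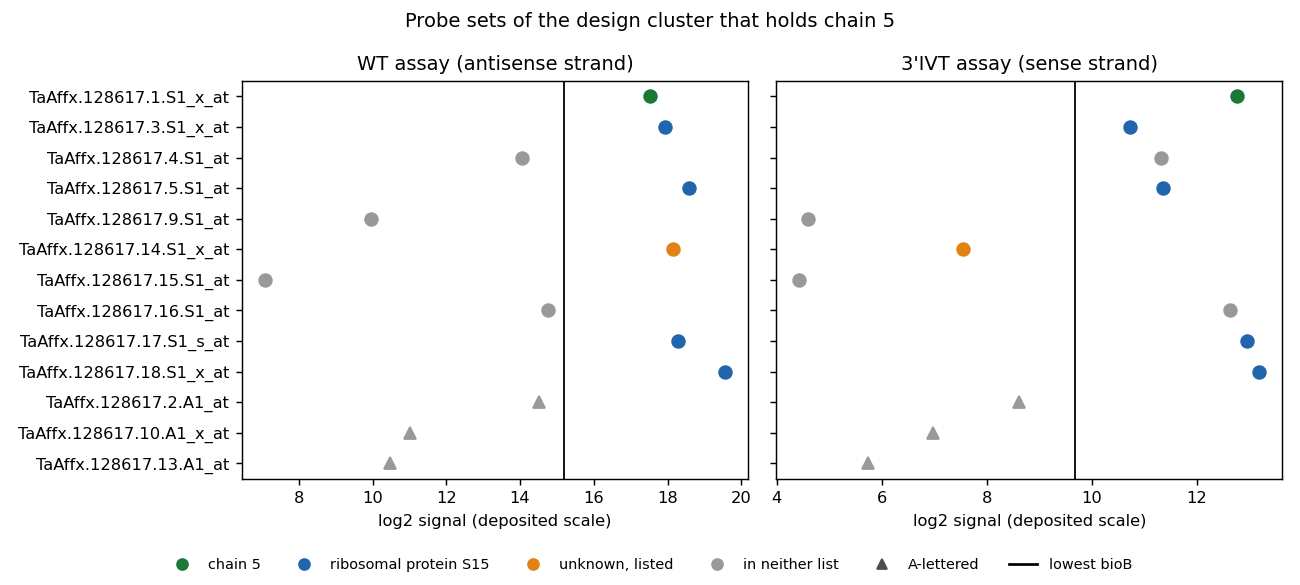
Log2 signal (x axis, deposited scale) of the 13 probe sets of the design cluster that holds chain 5 (rows), in the WT assay (left) and the 3'IVT assay (right). Colours give the listed function, triangles mark the letter A and the line is the lowest bioB probe set. The chain 5, S15 and listed unknown probe sets lie right of the line in the WT assay.

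For each member the annotated probe set of the lists with the most similar pair of excesses was sought among 100 candidates, by the distance over the 2 arrays in log2 units. Chain H was closest to ribosomal protein L14 of the large chloroplast subunit (TaAffx.128896.6.A1_at, distance 0.19), with log2 signals of 18.28 in the WT assay and 10.55 in the 3'IVT assay. NADH dehydrogenase was closest to S12 of the small chloroplast subunit (TaAffx.3720.2.S1_at, distance 0.18), with 18.79 and 10.13. NADH ubiquinone oxidoreductase was closest to the photosystem II protein D2 (TaAffx.28455.1.S1_at, distance 0.31), with 19.48 in the WT assay and 10.44 in the 3'IVT assay. Chain 5 was closest to a translation initiation factor (TaAffx.129824.1.S1_s_at, distance 0.31) and chain K to ATP synthase (TaAffx.4530.3.S1_s_at, distance 0.33). TaAffx.80571.1.S1_at was closest to a beta chain of the plastid RNA polymerase (TaAffx.5832.1.S1_at, distance 0.17). TaAffx.112816.1.S1_at had no neighbour as near, the closest being the RUBISCO large subunit probe set TaAffx.128414.24.A1_s_at at a distance of 0.91. Over all wheat probe sets 1 to 7 lay within 0.5 log2 units of a member. Likeness over 2 arrays is a likeness of 2 numbers only.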

How the data were processed

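The deposited table holds 1 linear signal intensity per probe set and array, made by the authors with MAS5 according to the submitters' notes. MAS5 brings the trimmed mean of every array to one target value, and over the 61290 deposited intensities the 2% trimmed mean was 500.2 for the WT array and 500.3 for the 3'IVT array. The study's lists rest on another summary (RMA, with detection calls), so counts here use signal alone. From the lists only names and putative functions were taken. The log2 of each intensity was used without normalization between arrays. Affymetrix controls (111) and reporter gene probe sets (64) were left out, which left 61115 wheat probe sets. For the background 1 reporter probe set at the level of creX was dropped, a choice made after its values were seen. With 1 array per assay no test was possible, and precision is limited by this number of arrays.

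The members, groups and rules were chosen with earlier results of these data known. Named were all members, all probe sets of their design clusters, the nearest annotated listed probe set of each, the green-tissue genes and the lowest bioB probe sets. The platform annotation gave 1 gene symbol for 1273 probe sets and none for a member, and none of the 9 mitochondrial NADH dehydrogenase genes in RefSeq (IWGSC CS RefSeq v2.1) was paired with a probe set. Alternatives, each run on the results it could apply to, were another bioB threshold, quantile normalization, a spike-in shift, leaving out shared probe sets, counting a design sequence once and a floor on low signals. Python 3.11.15, numpy 2.4.6, pandas 2.3.3 and matplotlib 3.10.9 were used, and counting and ranking were tested on simulated data.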

Additional observations from a re-analysis of the deposited data

How the results depend on the processing

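All 7 members stayed above the WT threshold after quantile normalization, after the spike-in shift and with a floor on low signals. With the median or the highest bioB probe set as threshold 6 of 7 were above it, and the exception was TaAffx.80571.1.S1_at, at a WT log2 signal of 16.04. With the median bioB probe set 4 members were above the 3'IVT threshold and 4 above both, and with the highest 2 and 2. Without shared probe sets 5 of 5 were above the WT threshold, 3 of 5 above the 3'IVT threshold and 3 of 5 above both. The median WT excess was 2.11 with the median bioB probe set, 1.66 with the highest, 1.85 after quantile normalization, 3.77 without shared probe sets and 3.42 with a design sequence counted once. The median 3'IVT excess was 0.139 with the median bioB probe set and turned to -0.264 with the highest. The gap between the WT and the 3'IVT excess of chain K turned to -0.0242 with the highest bioB probe set, and no other member's gap changed its direction in any setting that kept that member. Without shared probe sets 1 other probe set of the design clusters was above the WT threshold, against 5 in all. With all 64 reporter probe sets kept, an alternative chosen after seeing the data, 1 member was above the highest of them in the WT assay, against 7 without the brightest, and 0 in the 3'IVT assay, against 6. No paired analysis was possible because each assay has 1 array and both come from 1 RNA pool. Each value is 1 hybridization, so differences between probe sets near the threshold could not be told from error between arrays, and the scale of each array depends on how many probe sets hybridized.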
